A study of Arabidopsis thaliana with 6 samples.

Results

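Mitochondrial-encoded transcripts of Arabidopsis thaliana roots were followed with and without cadmium, on 22 of the 22810 probe sets of the Affymetrix ATH1 array. A member was every probe set for which the array annotation names exactly 1 gene whose lower-case symbol starts with nad, cox, cob, ccb or matR. The 22 probe sets covered 15 genes, and all of them were kept. Complex I had 15 probe sets for 8 genes, complex IV had 2 for 2 genes, cytochrome c maturation had 4 for 4 genes, and matR was the only other member. The symbol cob gave 0 probe sets with a single gene. All 22 matched a gene of the mitochondrial genome in the RefSeq table by symbol or synonym.

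Plants of the Col-0 accession, with no transgene or mutation named in the labels, were grown for 4 weeks in sterile hydroponic culture. The cadmium group (3 arrays) received 200 µM cadmium, a toxic heavy metal, for 6 h, and the control group (3 arrays) was kept without it. Total RNA of whole roots was labelled with biotin and put on 1 array per sample, so each signal averages all root cell types. The values are deposited MAS5 signals on a linear scale with arbitrary units. Differences are log2 of the cadmium signal minus log2 of the control signal. Arrays are named by group and by the replicate number in their titles. The labels call the replicates biological and do not say what a shared number stands for. The p-values measure the spread between these arrays only, and with 3 arrays per group each value has low precision.

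Plant mitochondria keep a small genome that encodes some subunits of the respiratory chain, while most of the chain is encoded in the nucleus and imported. The nad genes encode subunits of complex I, which passes electrons from NADH to ubiquinone and pumps protons. The cox genes encode subunits of complex IV, cytochrome c oxidase, which reduces oxygen. The ccb genes, also called ccm, encode factors that attach heme to c-type cytochromes, and matR encodes a maturase-like protein that acts in intron splicing. Several plant mitochondrial transcripts, those of nad1, nad2 and nad5 among them, are joined from separate precursors by trans-splicing.

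Those features set limits on what a probe set can tell. The nuclear genome of Col-0 carries a large insertion of mitochondrial DNA on its chromosome 2, so a probe set cannot separate a mitochondrial transcript from one of a near-identical nuclear copy. Polyadenylation marks many plant mitochondrial RNAs for decay, and the standard Affymetrix labelling protocol, which the labels cite, copies RNA from its poly(A) tail. Whether these signals follow the total pool of each transcript was not tested. Fewer cells or mitochondria and less transcript per mitochondrion cannot be told apart in RNA of whole roots.

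The arrays of replicate 2 stood apart. Their 2% trimmed mean signal was 227 on cadmium 2 and 216 on control 2, against 500 on each of the other 4 arrays. The log2 ratio of 3′ to 5′ actin signal, a measure of RNA quality, was 3.22 on cadmium 2 and 2.05 on control 2, against 0.22 and 0.34 on the other cadmium arrays and 0.29 and 0.07 on the other control arrays. Across 15909 probe sets the log2 signals of cadmium 2 correlated with r = 0.85 with control 1, 0.84 with control 2, and 0.66 with each of cadmium 1 and cadmium 3. The r of cadmium 2 with control 3 was 0.82. Control 2 likewise had a higher r with the other group, 0.82 and 0.84 with cadmium 1 and 3, against 0.77 and 0.80 with control 1 and 3. The titles and the descriptions number the replicates differently but pair the same arrays. The sign of every difference of replicate 2 rests on the group labels of its 2 arrays, and exchanged labels there would turn it. The labels were followed, and whether they are right was not tested. Results are therefore given over all 6 arrays, within replicates 1 and 3, and for replicate 2 alone. Few cell type markers had a probe set with a single gene. Of 12 root markers 2 were measured, and 0 of them had a signal of 0. XTH26 had 130, 83.5 and 362 on cadmium arrays 1, 2 and 3, against 3.63, 42.8 and 16.1 on control arrays 1, 2 and 3, so it was higher on every cadmium array. EXPA7, a root hair expansin, had 329, 127 and 752 on the cadmium arrays, against 204, 164 and 415 on the control arrays. Their summed signal ranged from 211 to 1114 on cadmium arrays and from 207 to 431 on control arrays. Of 9 markers of green shoot tissue 3 were measured, none at 0. RCA, which encodes Rubisco activase, lay between percentiles 74.6 and 91.7 of its array, SBPASE between 15.8 and 49.7 and PRK between 15.2 and 67.4, the last 2 being enzymes of the Calvin cycle. Their summed signal ranged from 377 to 2310 on cadmium arrays and from 315 to 1924 on control arrays. In 0 of these 5 markers were control 1 and cadmium 2 the 2 highest arrays.

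The question for these genes is whether their signals differ after 6 h of cadmium. A filter on low signals (mean over the 6 arrays at least 73.0, the 30th percentile) kept 21 of the 22 members and 15909 probe sets in all. In all 21 the signal was lower with cadmium in replicates 1 and 3 and higher with cadmium in replicate 2. Of all 15909 probe sets, which passed the same filter, 18.8% had that pattern. The filter takes the mean over all 6 arrays, so a member could pass through high signals on control 1 and cadmium 2. For nad7 these were 192 and 263, while its other signals lay between 32.5 and 49.5, below the cut. For the nad1 set 257327_at they were 183 and 170, and its other signals, 35.1 to 68.9, were below the cut too. Other signals lay on both sides of the cut in ccb203 (16.9 to 90.0) and the nad1 sets 257323_at (13.6 to 97.4) and 257329_at (30.9 to 110). The member left out, nad2, was lower with cadmium in each replicate, from low signals. The count of 21 of 21 therefore depends in part on the filter. The median difference of the 21 was -2.87 in replicate 1 (range -5.56 to -0.81), 2.98 in replicate 2 (1.50 to 5.96) and -0.79 in replicate 3 (-3.40 to -0.18). Over all probe sets tested the medians were 0.29, -0.11 and 0.16. The fold within a pair was at least 2 in 19 of 21 members in replicate 1, all lower with cadmium, where 8.17% of all probe sets were that much lower. In replicate 2 it was at least 2 in 21 of 21, all higher with cadmium, beside 9.23% of all probe sets. Replicate 3 had 10 of 21 at least 2-fold lower, beside 8.1% of all probe sets. These pairwise values have no replicate check. The root marker XTH26 differed by 5.16, 0.96 and 4.49 in replicates 1, 2 and 3 and EXPA7 by 0.69, -0.36 and 0.86, so both were higher with cadmium in the pairs in which the members were lower. The part of cell type makeup in the members' differences was not tested.

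**Figure D1:**
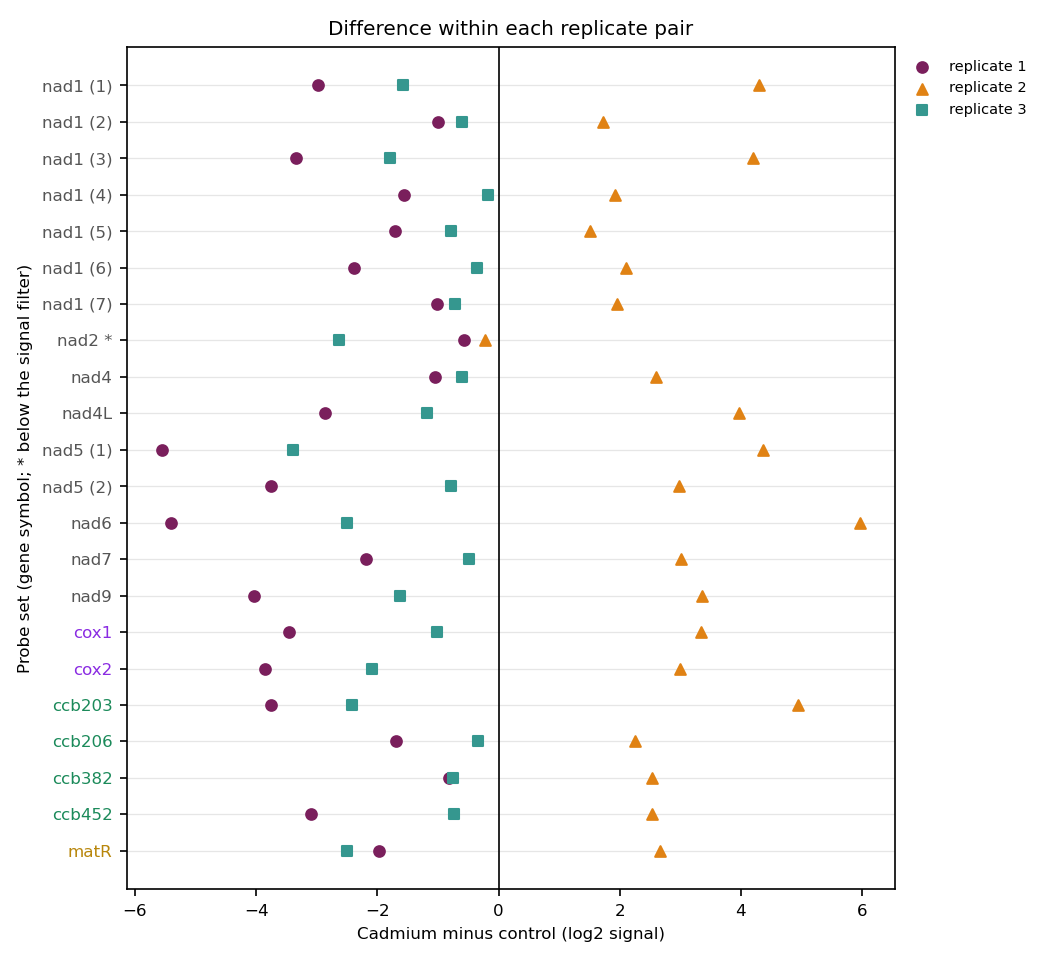
Difference between the cadmium and the control array of each replicate (log2 signal, x axis) for each of the 22 probe sets (y axis; numbers in brackets count probe sets of 1 gene in order of probe set ID; colours of the names give complex I, complex IV, cytochrome c maturation and other). In 21 probe sets the points of replicates 1 and 3 lie below 0 and that of replicate 2 above 0; nad2, marked with a star, is below the signal filter.

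Over all 6 arrays limma called 0 of 21 members at an adjusted p under 0.05, and 0% of all probe sets passed. On simulated data this fit recovered 0% at a log2 change of 4, so a count of 0 cannot tell no change from one of that size. Of the members 0 had an unadjusted p under 0.05, beside 0.528% of all probe sets, and the lowest adjusted p was 1. The median of the members' differences was -0.31, and that of all probe sets tested was 0.09. The cadmium and control groups overlapped in every member. Within replicates 1 and 3 limma again called 0 of 21, where 3.24% of all probe sets passed with a lower signal on the cadmium arrays. Of the members 5 had an unadjusted p under 0.05 (23.8%), all lower with cadmium, and the lowest adjusted p was 0.0860. Of all probe sets 24.4% had an unadjusted p under 0.05 in either direction, and the share lower with cadmium was not counted. The members' median difference there was -2.03, against 0.22 over all probe sets tested. In 11 of 21 members both cadmium arrays of replicates 1 and 3 lay below both control arrays, beside 16.9% of all probe sets.

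The count within replicates 1 and 3 turned on control arrays. Without control 3, 12 of 21 members passed with a lower signal on cadmium arrays, beside 4.62% of all probe sets. Without control 1 it was 1 of 21, beside 2.95% of all probe sets. The members' median was -3.43 without control 3 and -0.52 without control 1. Control 1 lay above control 3 in all 21 tested members, by a median of 2.74 (range 0.85 to 4.65, log2). That gap between 2 arrays of 1 group was about as wide as the difference of replicate 1 between the groups. Cadmium 1 lay above cadmium 3 in 20 of 21 members, by a median of 1.15 over the 21.

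A fit with an interaction asked whether the difference of replicate 2 itself departed from that of replicates 1 and 3. It called 2 of 21 members, both with a higher difference in replicate 2, where 5.09% of all probe sets were called in that direction. An unadjusted p under 0.05 was found for 13 of the 21 (61.9%), all with a higher difference in replicate 2, beside 30.1% of all probe sets in either direction. The members' median for replicate 2 minus replicates 1 and 3 was 4.90, and that of all probe sets tested was -0.36. Because replicate 2 is a lone pair, it was assumed to vary like the others.

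Both calls fell on complex I genes, which held 14 of the 21 tested probe sets. The first was nad6 (probe set 244953_s_at), a subunit of the membrane arm, with signals of 76.0, 1859 and 73.9 on cadmium arrays 1, 2 and 3, against 3234, 29.9 and 418 on control arrays 1, 2 and 3. Control 1 and cadmium 2 were high, control 3 was in between and the other 3 arrays were low, so the groups overlapped. Its differences were -5.41, 5.96 and -2.50 in replicates 1, 2 and 3. The difference of replicate 2 exceeded that of replicates 1 and 3 by 9.92 ± 1.63 (SE, limma adjusted p = 0.0340, and 0.0262 to 0.0490 under the alternatives). Within replicates 1 and 3 its difference was -3.96 ± 0.93 (SE, limma adjusted p = 0.0860), the lowest adjusted p of the members but not past the threshold.

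The other was a probe set for nad1 (257321_at), which encodes a membrane subunit close to the ubiquinone site. Of the 7 probe sets of nad1 it was the only 1 called. It had 248, 830 and 157 on cadmium arrays 1, 2 and 3, against 1959, 42.0 and 468 on control arrays 1, 2 and 3. Control 1 and cadmium 2 were again the high arrays and control 2 the lowest. The difference of replicate 2 exceeded that of replicates 1 and 3 by 6.59 ± 1.22 (SE, limma adjusted p = 0.0412, and 0.0292 to 0.0575 under the alternatives). Its control 2 signal was also under 62.1, and with signals set to at least that value the excess was 6.02. The call of nad1 was lost when probe sets below the filter were added or low signals were set to a floor, and that of nad6 was kept in both.

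**Figure D2:**
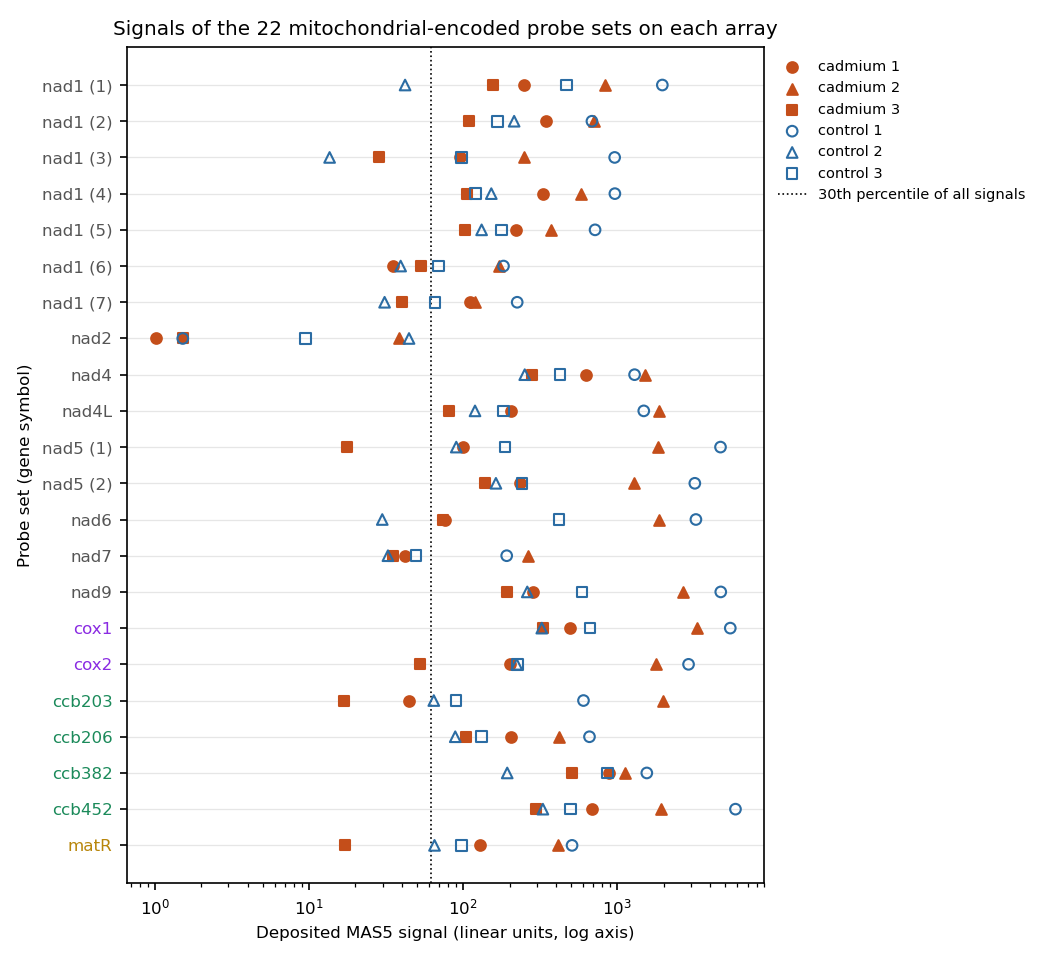
Deposited MAS5 signal (x axis, log scale) of the 22 probe sets (y axis) on each of the 6 arrays; filled symbols are cadmium, open symbols control, and the shape gives the replicate. Control 1 and cadmium 2 lie to the right of the other arrays in all but nad2, and the dotted line marks 62.1, the 30th percentile of all signals.

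Control 1 and cadmium 2 were the 2 highest arrays in 21 of 22 members (95.5%), and nad2 was the exception. Among all 22746 probe sets that are not controls, 3.16% had these arrays as their 2 highest. Because the arrays of replicate 2 had lower trimmed mean signals, the same was counted with percentile ranks within each array. This gave 21 of 22 members beside 7.69% of all. The members' median percentile was 45.8, 93.3 and 33.4 on cadmium arrays 1, 2 and 3, against 85.9, 51.0 and 47.9 on control arrays 1, 2 and 3. On cadmium 2, 13 of the 22 lay above the 90th percentile and on control 1 it was 8, while on the other 4 arrays it was 0. The members made up 0.0399%, 0.396% and 0.0191% of the summed signal of cadmium arrays 1, 2 and 3, against 0.289%, 0.0479% and 0.0399% of control arrays 1, 2 and 3. Their share was thus higher on cadmium 2 and control 1 than on any other array, 1 of each group.

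The actin ratio was high on both arrays of replicate 2, and on control 1 it was within the range of the other arrays of replicates 1 and 3. The log2 ratio of 3′ to 5′ GAPDH signal was lowest on control 1, at -0.60. The same ratio for ubiquitin was not high on the arrays of replicate 2, at 0.37 on cadmium 2 and -0.02 on control 2. On cadmium 1 and 3 the ubiquitin ratio was 0.59 and 0.38, and on control 1 and 3 it was 0.28 and 0.08. The 25S rRNA signal was 1928 on cadmium 2 and 2746 on control 2. It was 66.1 and 303 on cadmium 1 and 3, and 84.5 and 107 on control 1 and 3. Within replicate 2, where the members differed by a median of 2.98, the actin ratio was higher on cadmium 2 than on control 2, while the GAPDH ratio was 1.67 on cadmium 2 and 2.02 on control 2. The part of RNA quality and scaling in these differences was not tested.

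**Figure D3:**
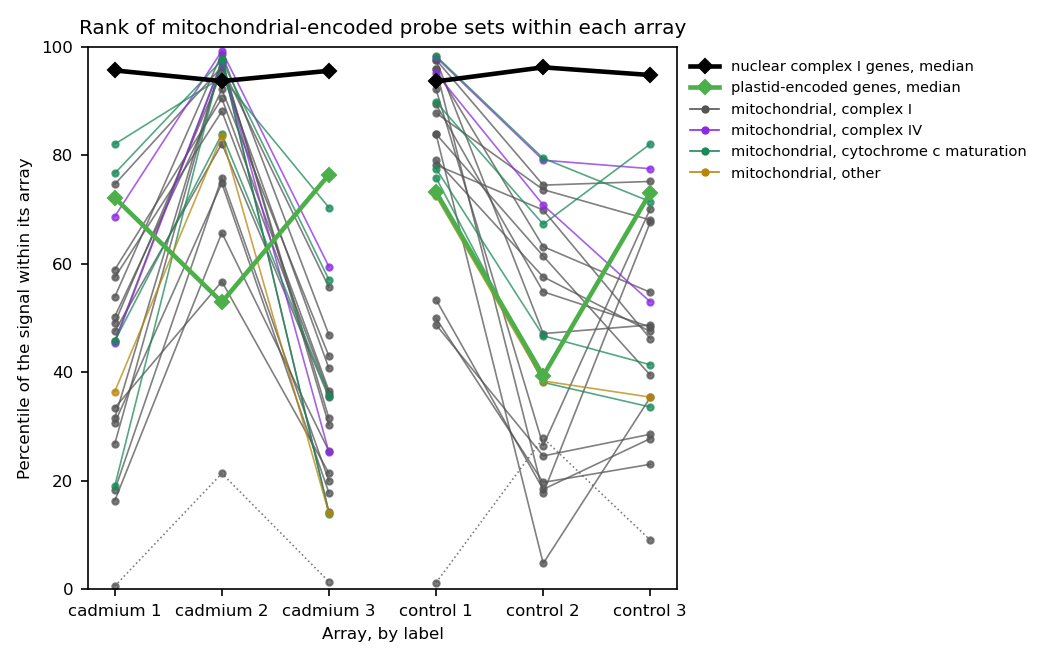
Percentile of each member's signal within its own array (y axis) on the 3 cadmium and the 3 control arrays (x axis), with thin lines for the 22 members (nad2 dotted), coloured by group, and thick lines for the medians of the nuclear complex I and the plastid-encoded lists. The members' median is 93.3 on cadmium 2 and 85.9 on control 1 and lies between 33.4 and 51.0 on the other 4 arrays.

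In the remaining complex I genes too, nad2 excepted, control 1 and cadmium 2 were the 2 highest arrays, while the order of the arrays otherwise varied between genes. The membrane subunit nad5 had 2 probe sets. Of these, 257337_at had 99.3, 1849 and 17.7 on cadmium arrays 1, 2 and 3, against 4671, 90.2 and 186 on control arrays 1, 2 and 3. Its differences of -5.56 in replicate 1 and -3.40 in replicate 3 were the widest of the tested members in those pairs, and it had 4.36 in replicate 2. The probe set 257338_s_at gave 235, 1284 and 139 on the cadmium arrays, against 3182, 163 and 241 on the control arrays. Its differences of -3.76, 2.98 and -0.79 had the same signs and were narrower. Both sets overlapped between the groups over the 6 arrays, and neither passed a test.

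The genes nad4 and nad4L encode membrane subunits, of which nad4 is one of the proton-pumping kind. For nad4 (244929_at) the signals were 625, 1520 and 281 on cadmium arrays 1, 2 and 3, against 1294, 251 and 426 on control arrays 1, 2 and 3. Its differences of -1.05, 2.60 and -0.60 were each narrower than the members' median of that replicate. The signals of nad4L (244902_at) were 204, 1858 and 80.4 on the cadmium arrays, against 1484, 119 and 183 on the control arrays. It differed by -2.87, 3.96 and -1.19, and cadmium 1 lay slightly above control 3.

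Subunits of the arm that reaches into the matrix are encoded by nad7 and nad9. The signals of nad9 (244943_at) were 285, 2667 and 191 on cadmium arrays 1, 2 and 3, against 4689, 260 and 591 on control arrays 1, 2 and 3. Both cadmium arrays of replicates 1 and 3 were below both control arrays, with differences of -4.04, 3.36 and -1.63. Within replicates 1 and 3 its difference of -2.83 ± 0.96 (SE) had a limma adjusted p of 0.160. The dimmer nad7 (244925_at) had 41.9, 263 and 35.2 on the cadmium arrays, against 192, 32.5 and 49.5 on the control arrays. Of its 6 signals 4 were under 62.1, so its differences of -2.19, 3.02 and -0.49 rest on low values.

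Over the 7 probe sets of nad1, the median signal was 221, 374 and 102 on cadmium arrays 1, 2 and 3, against 717, 42.0 and 120 on control arrays 1, 2 and 3. All 7 gave the same signs. The differences ranged from -3.34 to -0.99 in replicate 1, from 1.50 to 4.31 in replicate 2 and from -1.79 to -0.18 in replicate 3, so sets for 1 gene differed in size by more than 2 on the log2 scale in replicates 1 and 2. Which exon or intron each set covers was not known here. The set 257323_at had 94.7, 250 and 28.2 on the cadmium arrays, against 961, 13.6 and 97.4 on the control arrays, with differences of -3.34, 4.20 and -1.79. Set 257324_at, with 327, 577 and 106 against 964, 152 and 120 on the same arrays, had the narrowest difference of replicate 3, at -0.18. In 257327_at cadmium 1 (35.1) lay below cadmium 3 (53.6), the only tested member in which it did.

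The member that did not share the pattern was nad2 (257331_at), a proton-pumping membrane subunit. Its signals were 1.02, 38.1 and 1.52 on cadmium arrays 1, 2 and 3, against 1.52, 44.5 and 9.45 on control arrays 1, 2 and 3. All 6 were under 62.1 and it was not tested. Both arrays of replicate 2 were its highest, and its differences of -0.58, -0.22 and -2.63 lie between signals too low to give an order.

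For complex IV, cox1 (257333_at), the catalytic subunit that binds oxygen, had 492, 3280 and 330 on cadmium arrays 1, 2 and 3, against 5405, 323 and 665 on control arrays 1, 2 and 3. Its signal was 11.0-fold lower with cadmium in replicate 1, 10.1-fold higher in replicate 2 and 2.02-fold lower in replicate 3. The subunit that takes electrons from cytochrome c, cox2 (244950_at), had 201, 1770 and 52.8 on the cadmium arrays, against 2897, 222 and 224 on the control arrays. Both cadmium arrays of replicates 1 and 3 were below both control arrays for each gene. Within replicates 1 and 3 cox1 differed by -2.23 ± 0.96 (SE, limma adjusted p = 0.233). There cox2 differed by -2.97 ± 1.30 (SE, limma adjusted p = 0.236).

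In the cytochrome c maturation group, ccb203, ccb382 and ccb452 encode parts of the heme lyase and ccb206 encodes ccmB, part of a transporter-like complex. The gene ccb203 (244919_at) had 44.5, 1984 and 16.9 on cadmium arrays 1, 2 and 3, against 603, 64.5 and 90.0 on control arrays 1, 2 and 3. Only cadmium 2 and control 1 were above 100. Its differences were -3.76, 4.94 and -2.41, and the difference of replicate 2 exceeded that of replicates 1 and 3 by 8.03 ± 1.72 (SE, limma adjusted p = 0.0532), just outside the threshold.

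Among the tested members, the smallest difference of replicate 1 belonged to ccb382 (244912_at), with 885, 1113 and 511 on the cadmium arrays, against 1553, 193 and 860 on the control arrays. It differed by -0.81, 2.53 and -0.75, and control 2 was the lowest of the 6 arrays. The difference of replicate 2 exceeded that of replicates 1 and 3 by 3.31 ± 0.71 (SE, limma adjusted p = 0.0537). Both ccb203 and ccb382 passed with quantile normalization and with median centring.

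For ccb452 (244951_s_at) the signals were 682, 1912 and 297 on cadmium arrays 1, 2 and 3, against 5841, 329 and 495 on control arrays 1, 2 and 3. It differed by -3.10, 2.54 and -0.74, and cadmium 1 lay above control 3. For ccb206 (244945_at) they were 204, 421 and 104, against 660, 88.8 and 131 on the same arrays, with differences of -1.70, 2.25 and -0.33. The maturase-like gene matR (244926_s_at) had 129, 411 and 17.2 on the cadmium arrays, against 508, 65.2 and 97.7 on the control arrays. It was the only member apart from nad2 with a wider difference in replicate 3 (-2.51) than in replicate 1 (-1.98), and it differed by 2.66 in replicate 2.

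The groups of genes did not stand apart from each other by sign. Complex I differed by medians of -2.62, 3.0 and -0.79 in replicates 1, 2 and 3. Complex IV had -3.65, 3.17 and -1.55, from 2 genes. Cytochrome c maturation had -2.40, 2.53 and -0.74, from 4 genes. Across the 21 tested probe sets, those with a wider difference in 1 replicate tended to have a wider one in the others. Over these probe sets, which share arrays and in part genes, Pearson's r was 0.74 between replicates 1 and 3, -0.79 between replicates 1 and 2, and -0.73 between replicates 2 and 3. With 1 median per gene (n = 14) the values were 0.69, -0.76 and -0.66. Signals set to at least 62.1 left medians of -2.87, 2.60 and -0.74.

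Genes of other lists show how far the pattern reached. Among the 12 probe sets whose annotation names a mitochondrial gene together with another gene, 12 of 12 were lower with cadmium in replicates 1 and 3 and higher in replicate 2. Their medians were -3.46, 2.83 and -1.14 in replicates 1, 2 and 3. Limma called 0 of the 12 within replicates 1 and 3, where 3.24% of all probe sets passed with a lower signal on the cadmium arrays. For the difference of replicate 2 it called 1 of the 12, which was higher, beside 5.09% of all probe sets called higher.

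Nuclear-encoded partners of the same complexes had other values. Of 28 nuclear complex I genes listed, 16 had a probe set with a single gene, and these differed by medians of 0.22, -0.06 and 0.16 in replicates 1, 2 and 3, close to those of all probe sets. Their median percentile was 95.7, 93.7 and 95.6 on cadmium arrays 1, 2 and 3, against 93.7, 96.3 and 94.8 on control arrays 1, 2 and 3. Nuclear complex IV genes, 9 of 18, had medians of 0.17, 0.30 and 0.16. None of these 16 and 9 passed the threshold over all 6 arrays, within replicates 1 and 3 or in the interaction. The count at an unadjusted p under 0.05 in limma, in either direction, was 0 and 0 over all 6 arrays, 0 and 1 within replicates 1 and 3, and 2 and 0 in the interaction. The shares of all probe sets, in either direction, were 0.528%, 24.4% and 30.1%.

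Nuclear complex III genes, 10 of 14, had medians of 0.11, 0.09 and 0.17. A single gene of that list, AT5G25450, had the signs of the members, with 583, 3915 and 203 on cadmium arrays 1, 2 and 3, against 8616, 328 and 1833 on control arrays 1, 2 and 3. Control 1 and cadmium 2 were its highest arrays too. Its difference within replicates 1 and 3 was -3.53 ± 0.85 (SE, limma adjusted p = 0.0896).

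Nuclear genes of cytochrome c and its maturation were measured for 3 of 5, with medians of 0.02, 0.44 and -0.07. CYTC-2, a cytochrome c, had the signs of the members, with differences of -1.99, 1.89 and -1.03 in replicates 1, 2 and 3. Its difference of replicate 2 exceeded that of replicates 1 and 3 by 3.40 ± 0.77 (SE, limma adjusted p = 0.0576). Within replicates 1 and 3 CYTC-2 differed by -1.51 ± 0.44 (SE, limma adjusted p = 0.124). There CCMH, a maturation factor, differed by 1.14 ± 0.41 (SE, limma adjusted p = 0.181). Nuclear genes of mitochondrial transcription and RNA processing were measured for 8 of 26 and tested for 6, with medians of 0.47, -0.23 and 0.39 in replicates 1, 2 and 3. Of these 6, 0 passed in limma within replicates 1 and 3, where 3 had an unadjusted p under 0.05, beside 24.4% of all probe sets. For these 6 the medians had signs opposite to those of the members in each replicate.

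The other organelle genome did not share the order of arrays. Of 69 plastid-encoded probe sets 57 were tested, and they differed by medians of 0.15, 0.53 and 0.01 in replicates 1, 2 and 3. Of these 57, 8 (14.0%) had the signs of the members. Their share of the summed signal was 0.486%, 0.217% and 0.522% on cadmium arrays 1, 2 and 3, against 0.436%, 0.201% and 0.510% on control arrays 1, 2 and 3. It was lower on both arrays of replicate 2 and close between the groups within each replicate. Limma called 0 of the 57 within replicates 1 and 3 (1 at an unadjusted p under 0.05, beside 24.4% of all probe sets). For the difference of replicate 2 it called 1 higher and 3 lower, beside 5.09% and 3.85% of all probe sets. The differences between these lists and the members were not tested.

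**Figure D4:**
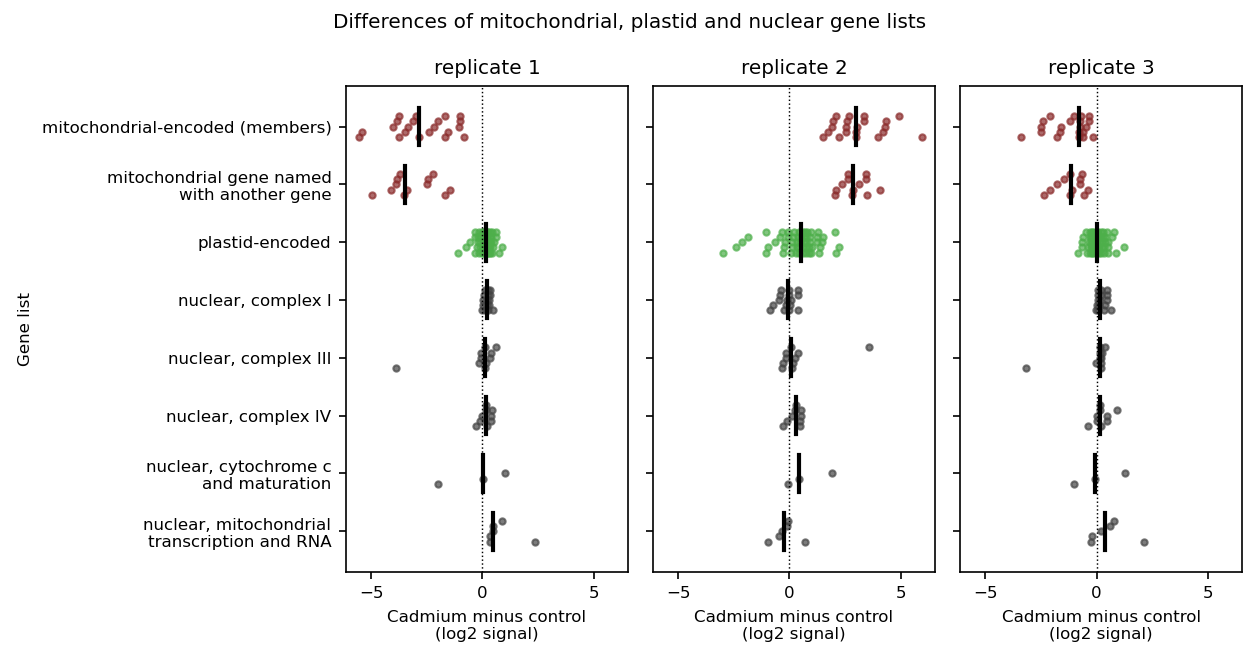
Difference between the cadmium and the control array (log2 signal, x axis) in replicates 1, 2 and 3 (panels from left to right) for probe sets of each gene list (y axis); each point is a tested probe set and the bar is the list's median. The members' medians are -2.87, 2.98 and -0.79, while the medians of the plastid and nuclear lists lie between -0.23 and 0.53.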

How the data were processed

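The authors deposited linear MAS5 intensities of 22810 probe sets on 6 arrays, per the submitters' processing notes. The MAS5 version and its scaling target are not given in the sources used here. Groups and replicate numbers came from the titles. The descriptions number the replicates otherwise but pair the same arrays, and the group labels were followed throughout.

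The deposited intensities were taken to log2. The 7 signals of 0, all from control 2, were replaced by the lowest positive value there. Control probe sets (64) and those with a mean signal under the 30th percentile (73.0) were left out. The 15909 others were fitted with limma 3.58.1 in R 4.3.3 (lmFit, eBayes with an intensity trend, two-sided), with Benjamini-Hochberg adjustment over all of them and a threshold of 0.05. Residual degrees of freedom were 4 over all 6 arrays, 2 within replicates 1 and 3 and 2 with the interaction of treatment and set. The sets were replicate 2 against replicates 1 and 3, grouped by their trimmed mean signals. No test was made for a list of genes, and list medians and percentiles are descriptions.

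The array annotation names 1 gene for 13513 probe sets, several for 503 and none for 8730. All members are named. Of other lists (98 nuclear genes) at most the 2 widest differences each way within replicates 1 and 3 are named. Members and lists were chosen with earlier results of these data known.

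On simulated data for 15909 probe sets with 50 changed at each size, the fit over all 6 arrays recovered 0% at log2 changes of 1, 2, 3 and 4, with 0 false calls. Noise was drawn independently for each array from each probe set's residual spread, which over all 6 arrays includes the shift of replicate 2. The fit within replicates 1 and 3 recovered 0%, 18%, 52% and 58% at those sizes, with 1 false call. The interaction recovered 2%, 38%, 68% and 80% at 2, 4, 6 and 8, with 2 false calls. Alternatives were quantile normalization, median centring, no filter, log2(signal + 16), a floor at 62.1, the replicate block, array weights, no intensity trend and leaving out each array.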

Additional observations from a re-analysis of the deposited data

How the results depend on the processing

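Over all 6 arrays 0 of 21 members passed under every alternative but array weights, which called 5, all lower with cadmium (5.4% of all probe sets were called lower, and 1560 in either direction, against 0), and gave cadmium 2 and control 2 weights of 0.12 and 0.20. The median over all 6 arrays, -0.31, ranged from -1.07 to 0.84 with 1 array left out and was above 0 without control 1 (0.84) or cadmium 3 (0.51). Within replicates 1 and 3 the count of 0 became 15, all lower, with the replicate block (9.49% of all probe sets were called lower, and 3521 in either direction, against 721). Whether shared numbers pair the arrays was not settled. Deviations from the means of all 3 arrays of a group correlated with 0.11, -0.04 and 0.29 for same-numbered arrays 1, 2 and 3. For unlike numbers they ranged from -0.36 to 0.16, with -0.36 for cadmium 3 and control 1 and -0.10 for cadmium 1 and control 3. These deviations include replicate 2, which the block within replicates 1 and 3 does not. Over all 6 arrays the block left the count at 0. With 1 array left out, a lone array being assumed to vary like the other group, that count ranged from 0 to 12 and its median from -3.43 to -0.52; over all probe sets the calls were 142 and 146 without cadmium 1 and cadmium 3, 677 without control 1 and 1266 without control 3. Without the intensity trend 353 probe sets passed there, and 0 members. The 2 members called for the difference of replicate 2 became 5 with quantile normalization, 4 with median centring, 1 with no filter and 1 with the floor at 62.1 (an alternative chosen after seeing the data), and were 2 with log2(signal + 16). Over all probe sets those calls were 1421, against 2045 with quantile normalization and 916 with no filter. Signals under 62.1 occurred for 9 of 22 members on cadmium 3 and 7 on control 2, where the size of a difference is poorly set.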

Other observations

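Plant mitochondria also have respiratory enzymes that bypass the proton-pumping complexes, all encoded in the nucleus. Of 7 genes listed under alternative respiration, 2 had a probe set with a single gene, and NDB2 is the 1 of them that encodes such an enzyme. NDB2, an external NAD(P)H dehydrogenase of the inner membrane, had signals of 612, 1977 and 521 on cadmium arrays 1, 2 and 3, against 3133, 320 and 3407 on control arrays 1, 2 and 3. Both cadmium arrays of replicates 1 and 3 were well below both control arrays, and in replicate 2 the cadmium array was the higher. Within replicates 1 and 3 NDB2 differed by -2.53 ± 0.21 (log2, SE, limma adjusted p = 0.0128), where 3.24% of all probe sets passed with a lower signal. The difference of replicate 2 exceeded that of replicates 1 and 3 by 5.16 ± 0.35 (SE, limma adjusted p = 0.0103), where 5.09% of all probe sets were called in that direction. Over all 6 arrays NDB2 was not called. Its control arrays of replicates 1 and 3 were close to each other, unlike those of the mitochondrial-encoded members. The other gene of the list, AT2G21640, is not taken here as a bypass enzyme. It differed by 0.01, 1.0 and 0.24 in replicates 1, 2 and 3 and did not pass.

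A single mitochondrial-encoded gene outside the members, orfX, had a probe set of its own. Its signals were 221, 707 and 115 on cadmium arrays 1, 2 and 3, against 501, 79.9 and 215 on control arrays 1, 2 and 3. Cadmium 2 and control 1 were again its highest arrays, and its differences were -1.18, 3.15 and -0.90. The difference of replicate 2 exceeded that of replicates 1 and 3 by 4.19 (limma adjusted p = 0.0542).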
